A study of Mus musculus with 2 samples.

Results

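Oligodendrocytes were sought among CD11b-selected brain cells by 4 transcripts of the myelin sheath, and 67 of the 37387 deposited cell barcodes met the rule. A member barcode held at least 500 UMIs (unique molecular identifiers, each counting 1 captured RNA molecule) and at most 10% mitochondrial UMIs. Its Mog, Mobp, Mag and Ermn UMIs summed to at least 3 and to at least 0.1% of all its UMIs. The endothelial genes Cldn5 and Flt1 together stayed under 0.1%, and the microglial genes Tmem119, P2ry12, Siglech, Gpr34 and Sall1 together under 0.2%. The library labelled WT gave 25 members and the library labelled KO 42, of 16606 and 17664 barcodes that met the UMI and mitochondrial limits (the kept barcodes).

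Each library was 1 droplet 3′ single-cell RNA library of brain cells from C57BL/6J-background mice aged 18 months, wild type in WT and CD200R1-/- in KO. CD200R1 is an inhibitory receptor of myeloid cells, and its ligand CD200 is a surface protein of neurons and other cells. All mice were untreated and perfused with cold PBS. Brains were dissociated with an adult brain kit, and cells carrying CD11b, a myeloid integrin that oligodendrocytes do not carry, were kept with magnetic particles, so the members stand outside the selected population. The labels do not say how many mice each library came from, in which part of CD200R1 the deletion lies, or whether WT and KO mice were littermates. Cd200r1 had 0 UMIs in WT members and 1 in KO members, and a 3′ tag may lie outside the deleted part, so this gene did not check the genotype. With 1 library per genotype no difference below has a replicate check and no p-value is given; the genotype cannot be told apart from the library, and intervals (95%) cover counting error only.

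Oligodendrocytes wrap axons of the central nervous system in myelin, a stack of lipid-rich membrane held together by a few very abundant proteins. Mbp encodes one of them, and Mbp mRNA is known to be carried out along the cell's processes and translated at the sheath, as is Mobp mRNA. Mature cells also hold much iron and ferritin and make lipids such as galactosylceramide and cholesterol. They are held in their mature state by transcription factors that include Sox10, Myrf and Olig1.

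The 4 genes of the rule encode different parts of the sheath. Mog is an immunoglobulin-like protein of its outermost surface, Mobp a small protein of compact myelin, Mag an adhesion protein of the membrane facing the axon and Ermn a cytoskeletal protein of late differentiation. On GRCm38 (RefSeq) Mog lies at chr17:37010740-37023398 and Mobp at chr9:120149742-120181488. Mag lies at chr7:30899175-30914922 and Ermn at chr2:58045115-58052864. Their promoters are shown because members were chosen by these 4 transcripts, and because the factors that drive them are among the genes described below. The 250 bases before the annotated start were at chr17:37023399-37023648 (minus strand) for Mog and chr9:120149492-120149741 (plus strand) for Mobp. They were at chr7:30914864-30915113 (minus strand, the first of 3 annotated starts) for Mag and chr2:58052865-58053114 (minus strand) for Ermn. Each is written 5′ to 3′ on the gene's strand. Capitals mark exact matches, on either strand, to ACAAAG, a core that Sox proteins bind, or to CTGGNAC, a core described for Myrf.
Mog: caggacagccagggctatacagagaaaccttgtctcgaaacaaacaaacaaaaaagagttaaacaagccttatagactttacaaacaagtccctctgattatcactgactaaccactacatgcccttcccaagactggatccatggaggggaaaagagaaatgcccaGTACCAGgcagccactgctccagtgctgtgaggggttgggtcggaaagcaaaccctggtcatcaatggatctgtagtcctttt
Mobp: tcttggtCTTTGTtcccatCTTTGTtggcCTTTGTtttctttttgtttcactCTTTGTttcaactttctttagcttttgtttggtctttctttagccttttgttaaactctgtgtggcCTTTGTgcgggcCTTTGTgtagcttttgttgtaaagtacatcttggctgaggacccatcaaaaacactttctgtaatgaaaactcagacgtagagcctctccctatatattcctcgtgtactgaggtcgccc
Mag: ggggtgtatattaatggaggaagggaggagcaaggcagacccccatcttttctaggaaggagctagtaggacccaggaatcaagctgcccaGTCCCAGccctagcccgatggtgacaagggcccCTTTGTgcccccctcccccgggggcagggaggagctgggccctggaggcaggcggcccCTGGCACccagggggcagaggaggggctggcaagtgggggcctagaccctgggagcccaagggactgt
Ermn: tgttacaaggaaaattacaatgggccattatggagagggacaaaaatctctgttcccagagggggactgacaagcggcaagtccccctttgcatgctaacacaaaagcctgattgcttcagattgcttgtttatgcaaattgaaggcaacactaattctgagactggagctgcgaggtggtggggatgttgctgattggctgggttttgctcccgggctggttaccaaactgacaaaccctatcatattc
Mobp held 6 ACAAAG matches and no CTGGNAC match, Mog 1 CTGGNAC match, Mag 1 and 2 of the respective motifs, and Ermn none of either. Of 32851 promoter windows of this length 16.5% held ACAAAG and 16.1% held CTGGNAC. Among the 12 of the 20 leading genes of the members that had an entry, 4 held ACAAAG and 4 held CTGGNAC. A match is a run of letters and not a measured binding site.

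The members differed widely in depth. WT members held 152739 UMIs with a median of 6406 per barcode (range 595 to 25974), and KO members 116002 UMIs with a median of 1396.5 (510 to 12659). The median over all deposited barcodes was 3596.5 in WT and 3975 in KO. KO members were thus shallower than WT members although the KO library as a whole was not. The libraries shared 103 barcode sequences, none of them a member's. Scrublet, a caller of droplets that hold 2 cells, called 205 kept WT barcodes (1.23%) and 723 kept KO barcodes (4.09%) against an expected 14.6% and 15.3%, and no member. Whether members hold such droplets was not tested.

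Several members sat at the limits of the rule. Exactly 3 marker UMIs were found in 4 WT and 10 KO members, and 7 and 17 other kept barcodes had 2. The lowest marker share among members was 0.187% in WT and 0.110% in KO, while 8 WT and 14 KO barcodes with at least 3 marker UMIs had at most 0.0888% and 0.0768%. The limits on endothelial and microglial genes removed 18 of 43 WT and 32 of 74 KO barcodes that met the marker part, of which 14 and 18 were removed for microglial genes alone. Of the removed barcodes 9 in WT and 13 in KO were rich in Mbp in the sense defined below, and 2 and 6 held both Mog and Mag. The member nearest that limit had 0.195% microglial UMIs and the nearest barcode removed by it 0.2004%, both in KO.

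Genes outside the rule matched the label in the pooled members. The 20 genes that stood highest over all other kept barcodes included, beside Mobp, Ermn and Mag, the myelin genes Mbp and Cnp, the tubulin Tubb4a, the transcription factor St18, and Pcdh9, Slc24a2, Nkain2, Aplp1, Edil3 and Pex5l. Cnp stood at 2056 CPM (UMIs per 1000000 UMIs) in WT members and 1448 CPM in KO members, against 32.5 and 35.7 CPM in other kept barcodes. St18 stood at 1519 and 888 CPM against 2.17 and 2.56. These genes describe the members and support nothing, since the rule chose barcodes by transcripts that share cells with them.

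A closer look split the members into 3 kinds. The kinds were defined after the values were seen. Mog/Mag members had a UMI of both Mog and Mag, and numbered 15 in WT and 10 in KO. Mbp-rich members lacked 1 or both of these and had at least 5 Mbp UMIs making up at least 0.5% of their UMIs, and numbered 5 and 21. The remaining members, marked neither in the plots, numbered 5 and 11. Since a deeper barcode more often holds a UMI of both Mog and Mag, this definition favours deep barcodes for the first kind. The Mbp limit fell in a gap: the lowest share among Mbp-rich members was 1.3% in WT and 1.34% in KO, and the highest among the remaining members 0.436% and 0.545%.

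**Figure D1:**
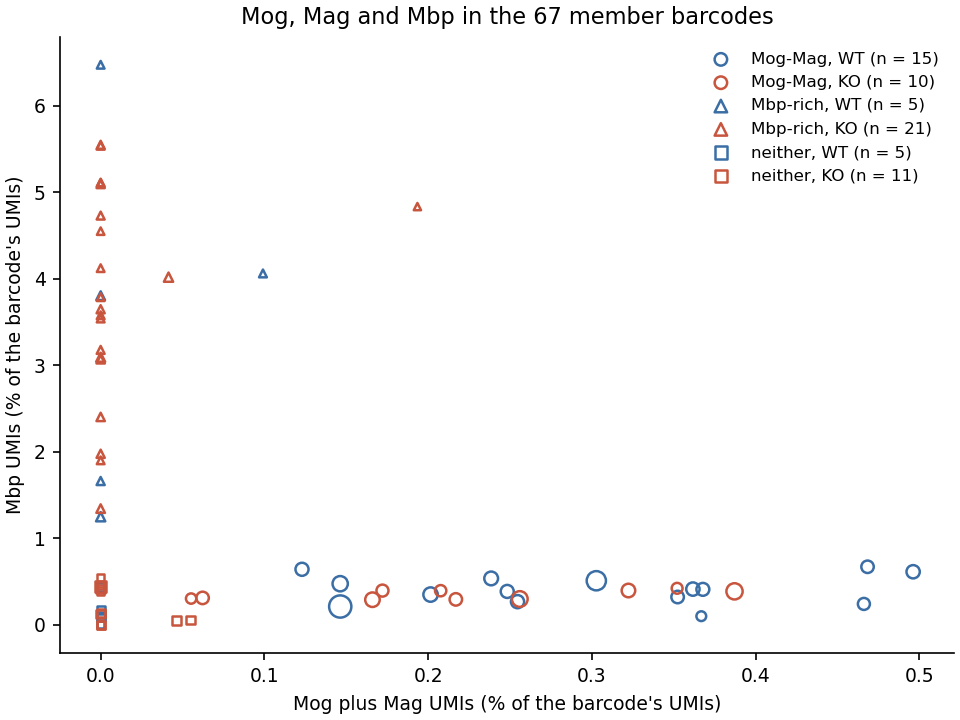
Mog plus Mag (x axis) against Mbp (y axis), each as a percentage of the barcode's UMIs, in the 67 members. Colour gives the library, marker shape the kind and marker size the UMIs of the barcode; Mog/Mag barcodes lie along the x axis and Mbp-rich barcodes along the y axis, apart from 3 that held a UMI of Mog or Mag, and the Mog/Mag ones are larger.

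Most Mog/Mag members held oligodendrocyte genes that neither the rule nor the definition used. The transcription factor gene Sox10 was found in 11 of 15 in WT and 8 of 10 in KO. Cnp, which encodes an enzyme of the myelin's cytoplasmic channels, was found in every one of them, at 6.16 to 43.1 UMIs per 10000 UMIs of a barcode in WT (median 22.3) and 8.29 to 27.5 in KO (median 24.2), so the KO values lay within the WT range. Of the rule's genes, which the selection favours, Ermn was found in 14 of 15 and 10 of 10 and Mobp in 15 of 15 and 9 of 10. A pair of barcodes fitted less well: 1 WT barcode also held 69 UMIs of the astrocyte gene Aqp4, and 1 KO barcode had 4 marker UMIs, no Mobp and 12.9% ribosomal protein UMIs. Mog/Mag members were deep, with a median of 7464 UMIs and 2894 genes in WT and 6440.5 UMIs and 2787 genes in KO. Ribosomal protein genes made up a median 5.46% and 4.33% of their UMIs.

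Mbp-rich members held much Mbp, by definition, and few of the other markers. Mbp made up a median 3.81% of their UMIs in WT (1.3% to 6.48%) and 3.79% in KO (1.34% to 5.55%), against 0.410% and 0.349% in Mog/Mag members. Of the rule's genes they met the marker limit mostly through Mobp: 4 of 5 WT and 14 of 21 KO Mbp-rich members had no Mog, Mag or Ermn UMI, and none had Sox10. Their depth was low, with medians of 1263 UMIs and 766 genes in WT and 1101 UMIs and 485 genes in KO. Ribosomal protein genes made up a median 22.1% of UMIs in WT (9.34% to 23.3%) and 23.7% in KO (12.97% to 29.9%), above the range of 2.88% to 12.9% in KO Mog/Mag members. Malat1, a nuclear RNA, made up 0.185% of UMIs in the 21 KO Mbp-rich members together, with a UMI in 12 of them, and 4.23% in the 10 KO Mog/Mag members. In WT these shares were 1.89% and 3.04%, and 46 and 85 of the WT Mbp-rich Malat1 UMIs lay in 2 of the 5 barcodes.

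The contrast was also present at 1 depth, with each barcode thinned to 1000 UMIs and shallower barcodes left out. Mog then had a UMI in 11 of 15 WT and 5 of 10 KO Mog/Mag members, against 1 of 4 WT and 0 of 14 KO Mbp-rich members (which allows up to 23.2% of barcodes with a UMI by the exact interval), and the definition of the kinds used this gene. In the other direction, and outside the definition, the neuronal noncoding RNA Bc1 had a UMI in 0 of 15 and 0 of 10 thinned Mog/Mag members and in 3 of 4 and 14 of 14 Mbp-rich members. Unthinned, Bc1 had a UMI in 4 of 5 WT and 19 of 21 KO Mbp-rich members, and in 1 of 15 and 2 of 10 Mog/Mag members. In endothelial barcodes, which should lack it, Bc1 had a UMI in 29.2% and 32.0% at the depth given below.

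Several transcripts stood higher in Mbp-rich members, of which Mbp and Mobp had to. Mbp defined this kind, and barcodes this shallow that lacked Mog or Mag reached 3 marker UMIs mostly through Mobp, so these levels follow from the selection. Mbp stood at 29780 CPM (25980 to 33970) in WT and 36570 CPM (34250 to 39000) in KO, against 4042 and 3457 CPM in Mog/Mag members. Mobp stood at 4042 CPM (2727 to 5770) and 9969 CPM (8779 to 11280), against 2346 and 1960 CPM. Ferritin heavy chain, Fth1, stood at 70470 and 83500 CPM, against 17980 and 22500 CPM, and was the most abundant of these transcripts in both libraries. The calcium-binding protein gene S100b (3368 and 2285 CPM against 265 and 708), Bcas1, a gene of newly forming myelin (2021 and 2640 against 379 and 436), and Plekhb1 (1482 and 1931 against 272 and 286) were higher as well. Fth1, S100b, Bcas1 and Plekhb1, which the selection did not use, were thus higher in Mbp-rich than in Mog/Mag members in each of the 2 libraries.

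Some transcripts of Mog/Mag members were low or not detected in the Mbp-rich members, and the 4 given here were chosen after their values were seen. Cldn11, the tight junction protein of myelin, had 171 WT and 73 KO UMIs in Mog/Mag members and 0 in Mbp-rich members, which made it at least 3.03-fold lower in WT and at least 8.4-fold lower in KO (against 3 UMIs per group). Nkain2 stood at 5294 and 5675 CPM in Mog/Mag members and at 1 and 0 UMIs in Mbp-rich members, at least 48-fold lower in KO. Magi2, a scaffold protein gene, and Slc24a2, a sodium, calcium and potassium exchanger gene, were at 0 in the Mbp-rich members of both libraries, at least 27.9-fold and 23.5-fold lower in KO.

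Mbp-rich members of the KO library also held transcripts known from neurons and astrocytes, and these were rarer in WT. Kif5a, a neuronal kinesin motor gene, had 58 UMIs in 13 of 21 KO Mbp-rich members (2285 CPM, 1735 to 2954) and 1 UMI in the 5 WT ones. It had 0 UMIs in the 10 KO Mog/Mag members, at least 56.0-fold lower. Bc1 stood at 5911 CPM (5003 to 6936) in KO and 1752 CPM (933 to 2995) in WT Mbp-rich members, against 234 and 130 CPM in other kept barcodes of at most 2500 UMIs. Camk2n1 stood at 1773 CPM and Slc1a2, the astrocytic glutamate transporter gene, at 1497 CPM in KO, and both had 0 UMIs in WT. The defining neuronal genes Rbfox3, Gad1 and Slc17a7 were at 0 in all members, and 8 neuronal markers together stood at 0 and 39.4 CPM in WT and KO Mbp-rich members. Astrocyte markers together, Slc1a2 among them, stood at 1482 and 3389 CPM, and their part in these levels was not tested.

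The remaining members rested on Mobp. All 5 in WT and all 11 in KO had Mobp, none had Mog or Ermn, and 2 KO barcodes had Mag. Mbp stood at 1992 CPM (994 to 3564) and 2333 CPM (1667 to 3177), above the 117 and 201 CPM of other shallow barcodes. Microglial markers stood at 8872 and 4840 CPM and choroid plexus markers at 18110 and 20760 CPM. Mbp-rich members held them too, at 4581 and 4965 CPM and at 9970 and 19470 CPM. Mural cell markers stood at 5120 and 1064 CPM in Mbp-rich members. The 10 oligodendrocyte markers outside the rule, Mbp among them, stood at 2173 and 3091 CPM in the remaining members. In Mbp-rich members they stood at 32880 and 39560 CPM. For the remaining members the data thus do not bear out the name oligodendrocyte, and they are called by their rule.

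**Figure D2:**
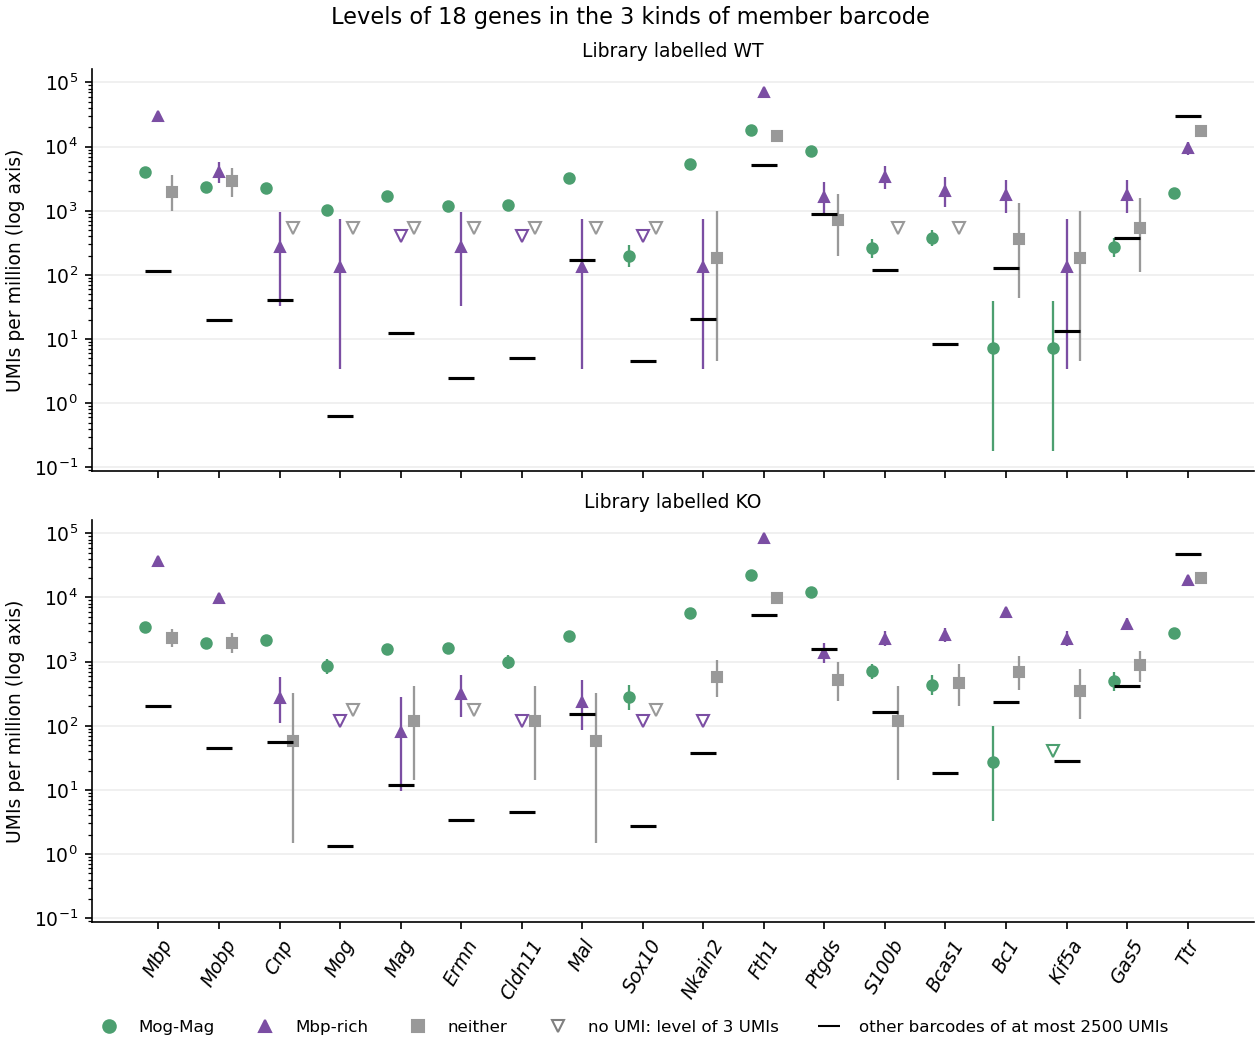
Levels of 18 genes in CPM (log axis) in the 3 kinds of member, WT above and KO below. Bars are exact Poisson intervals over pooled UMIs, open triangles the level of 3 UMIs where there were none and dashes other kept barcodes of at most 2500 UMIs; Fth1 and Bc1 sit higher in Mbp-rich members and Cldn11, Mal and Nkain2 in Mog/Mag members, while Mbp, Mobp, Mog and Mag were used in the selection.

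Transcripts known from other cell types were found in the members, at levels that differed between genes. Whether they came from RNA outside the cell or from droplets that hold 2 cells was not tested. Ttr, the transthyretin gene of choroid plexus epithelium, was found in all 67 members, at 1896 and 2763 CPM in Mog/Mag, 9431 and 18760 CPM in Mbp-rich and 17740 and 20060 CPM in the other members. In other shallow barcodes Ttr stood at 30510 and 48320 CPM. The 7 choroid plexus markers together reached 0.5% of UMIs in 11 WT and 35 KO members, and microglial markers in 9 and 17. Of the rule's genes, Mog had a UMI in 0.319% and 0.103% of endothelial barcodes (median 6947 and 6318 UMIs) and in 0.170% and 0.132% of microglia barcodes (7029 and 6469 UMIs). Mobp was found more often, in 2.36% and 4.43% of endothelial and 2.04% and 5.12% of microglia barcodes. Mag was found in 1.67% and 1.21% of endothelial but in 14.1% and 16.2% of microglia barcodes, at about the same depth. The precursor genes Pdgfra, C1ql1 and Gpr17 and the Schwann cell genes Pmp2 and Prx had 0 UMIs in all members. Of 7 precursor genes 4 had a UMI. Together the 7 stood at 216 and 8.62 CPM in WT and KO members, against 38.8 and 36.8 CPM in other kept barcodes. Of 6 Schwann cell genes, Sox10 among them, 3 had a UMI. Together the 6 stood at 189.9 and 189.7 CPM, against 12.4 and 5.997 CPM, and Sox10 alone at 183 and 181 CPM in members.

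The first comparison was how many members each library held. Members made up 0.151% (0.0975% to 0.222%) of kept WT barcodes and 0.238% (0.171% to 0.321%) of kept KO barcodes, a KO to WT ratio of 1.58 (0.941 to 2.70), so the interval includes equal shares. The kinds went in different directions. Mog/Mag members made up 0.0903% (0.0506% to 0.149%) and 0.0566% (0.0272% to 0.104%), a ratio of 0.627 (0.252 to 1.49). Mbp-rich members made up 0.0301% (0.00978% to 0.0703%) and 0.119% (0.0736% to 0.182%), a ratio of 3.95 (1.45 to 13.4), the one interval of the 3 kinds that excluded equal shares. The remaining members had a ratio of 2.07 (0.663 to 7.59). The higher total in KO thus lay in the shallow kinds, and the direction turned when Mog/Mag members alone were counted. The limits on endothelial and microglial genes removed 2 WT and 6 KO barcodes with both Mog and Mag, and 9 and 13 rich in Mbp. These shares leave those barcodes out. The selection by CD11b, the UMI limit and these gene limits can set all of the shares, and their part was not tested.

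**Figure D3:**
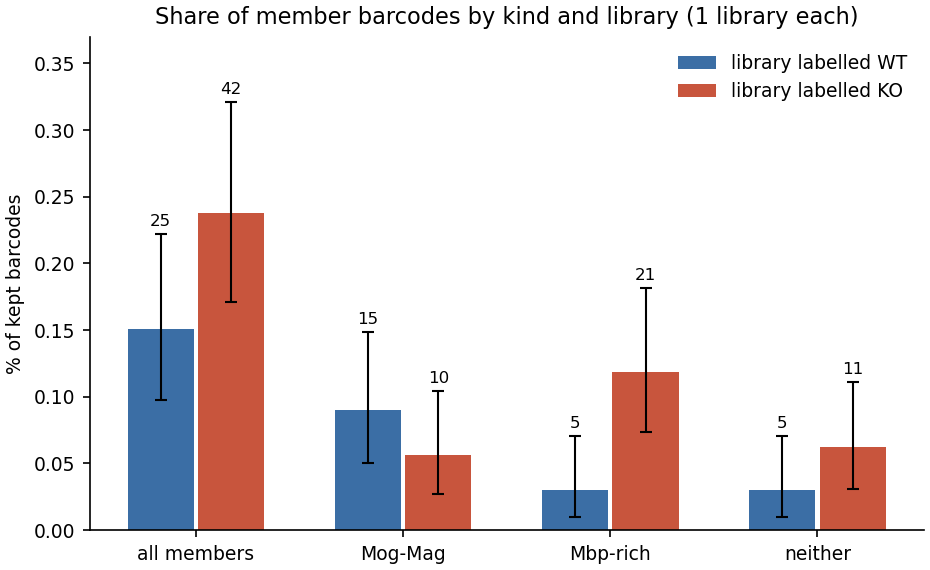
Share of kept barcodes (y axis, per cent) that were members, in all and by kind, in the WT and KO libraries. Bars are 1 library each, error bars are exact Clopper-Pearson intervals and the number above each bar is its count of barcodes; the KO bar is higher for all members and for Mbp-rich members, and lower for Mog/Mag members.

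Expression was compared as the log2 ratio of KO to WT, with 50 CPM added to each level, over UMIs summed per library. In all members, 25 of 843 genes with at least 50 UMIs were at least 2-fold higher in KO (2.97%) and 41 at least 2-fold lower (4.86%). With each member thinned to 1000 UMIs, 24 were higher and 13 lower of 144 measured. Median-ratio scaling gave 36 higher and 30 lower, and the median over these 843 genes before that scaling was -0.10. The highest genes included those that set Mbp-rich members apart. Bc1 went from 16 to 164 UMIs (log2 ratio 3.24), Kif5a from 3 to 64 (3.11) and Camk2n1 from 9 to 56 (2.29). In Mog/Mag members alone, Bc1 had 1 and 2 UMIs and Kif5a 1 and 0. The growth arrest transcript Gas5 stood at a ratio of 1.74 in all members and 0.78 in Mog/Mag members, and Ttr at 1.62 and 0.53. Slc1a2 stood at 1.52 in all members and -0.38 in Mog/Mag members, and at 0.36 in Mog/Mag members without the Aqp4 barcode described next.

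The lowest genes lay mainly in Mog/Mag members. Aqp4, the astrocyte water channel gene, had 69 UMIs in WT and 6 in KO (log2 ratio -2.30). All 69 came from 1 WT barcode of 25974 UMIs and 5965 genes, which also held 37 of the 38 Gfap UMIs, 50 of the 60 Sparcl1 UMIs and all 47 Gria1 UMIs of WT Mog/Mag members, beside 55 Mbp UMIs. Scrublet did not call this barcode a doublet. Without it the Mog/Mag ratios of Sparcl1 and Mt2 went from -2.20 and -1.91 to -0.40 and -0.20.

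Expression was also compared in Mog/Mag members alone, where 9 of 687 genes were at least 2-fold higher in KO (1.31%) and 18 at least 2-fold lower (2.62%). Dscaml1, a cell adhesion gene, had 110 UMIs in 14 of 15 WT barcodes and 19 UMIs in 10 of 10 KO barcodes. Per 10000 UMIs of a barcode it ran from 0 to 23.3 (median 7.07) in WT and from 1.55 to 5.12 (median 2.21) in KO, so the KO values lay within the WT range. Its log2 ratio was -1.44, and the ratio of the CPM values 0.329 (0.191 to 0.538). Rab31, a vesicle transport GTPase gene, had 98 and 19 UMIs and a ratio of -1.28. Without the Aqp4 barcode and the 5 barcodes with Klk6 described below, Dscaml1 stood at -1.64 and Rab31 at -1.14.

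Il33, the gene of an alarmin cytokine that mature oligodendrocytes hold in their nuclei, was lower in KO. It had 140 UMIs in 14 of 15 WT Mog/Mag barcodes and 31 UMIs in 7 of 10 KO ones. Per 10000 UMIs it ran from 0 to 18.7 (median 11.7) in WT and from 0 to 9.92 (median 5.46) in KO, and the libraries overlapped. The log2 ratio was -1.46 in all members and -1.16 in Mog/Mag members, and it was -1.0 without the Aqp4 and Klk6 barcodes. Sgk1, a kinase gene that glucocorticoids induce, ran from 4.10 to 29.7 (median 17.2) in WT and from 0 to 16.1 (median 7.14) in KO, with a Mog/Mag ratio of -0.93 and -1.19 without those barcodes. Myrf, the factor that keeps myelin genes on, had 33 and 7 UMIs in Mog/Mag members, a ratio of -0.98, which was -0.58 without the Klk6 barcodes and -0.81 without those and the Aqp4 barcode.

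Detection itself differed for a pair of genes, Xkr4 picked after its values were seen. Pcdh15, a protocadherin gene of precursors and young cells, had 23 UMIs in 8 of 15 WT Mog/Mag barcodes and 0 in the 10 KO ones, at least 4.03-fold lower against 3 UMIs. Xkr4 had 32 UMIs in 8 WT barcodes and 0 in KO, at least 5.61-fold lower. The genotype, the mice and the library cannot be told apart as the source of either difference.

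Genes higher in KO Mog/Mag members rested on a few barcodes. Jun, an immediate early gene, had 20 WT and 45 KO UMIs (log2 ratio 1.78), and 37 of the 45 lay in 1 KO barcode. S100b had 37 and 52 UMIs (1.27) and Apod, the apolipoprotein D gene, 470 and 510 (1.03). Without 5 barcodes that held Klk6, a serine protease gene of one mature oligodendrocyte subset, these ratios were 0.24 for Jun, -0.88 for S100b and -0.62 for Apod. With the Aqp4 barcode left out too, they were 0.27, 0.23 and -0.86, and S100b had only 8 WT and 4 KO UMIs. Gstm1 (1.1), Acaca (1.03), Ctnna2 (1.01) and Anln (1.00) stood at 0.23, -0.22, -0.19 and -0.09 without the Klk6 barcodes. Cdh10, a cadherin gene, stood at 1.03 with them and 1.56 without, where 16 of its 27 KO UMIs lay in 1 barcode.

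The 5 Klk6 barcodes, 2 in WT and 3 in KO, shared low Ptgds, stood high in Apod as a sum and differed in other genes. They were picked by Klk6 after the values were seen, so the profile is a description. Klk6 UMIs numbered 4 and 7 in the WT barcodes and 13, 10 and 1 in the KO barcodes. Ptgds, the prostaglandin D synthase gene that marks another mature subset, had 0 and 2 UMIs there in WT and 0, 0 and 3 in KO, and 25 to 399 UMIs (median 80.5) in each of the other 20 Mog/Mag barcodes. The 2 sets did not overlap for Ptgds in either library. Apod stood at 12740 CPM in the WT and 13500 CPM in the KO Klk6 barcodes, against 2733 and 1755 CPM in the others of each library. S100b stood at 909.9 and 1479 CPM, against 221 and 97.5 CPM. Of the 29 WT S100b UMIs outside the Klk6 barcodes, 21 lay in the Aqp4 barcode, and the WT level was 76.2 CPM without it. Summed over barcodes, both genes were thus higher in the Klk6 barcodes of each library, but single barcodes overlapped. In WT, Apod made up 1.07% and 1.38% of UMIs in the Klk6 barcodes and 1.45% in 1 of the others. In KO, the barcode with 1 Klk6 UMI had 0.48% Apod, below 0.56% in 1 of the others. It had 2 S100b UMIs of 8067, against 3 of 6455 in another KO barcode without Klk6. Hopx (455 and 894 CPM against 99.2 and 48.7), Anxa5 (227.5 and 524 CPM against 84.0 and 48.7) and Enpp6 (341 and 462 CPM against 38.2 and 24.4) were higher too, but each was at 0 in 1 of the 2 WT Klk6 barcodes. Anln, a septin-binding protein gene, was higher in KO alone, with 1603 against 414 CPM there and 455 (4 UMIs) against 443 CPM in WT.

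Opposite to these, Opalin had 0 UMIs in the 5 Klk6 barcodes and 94 UMIs in 18 of the 20 others (546 CPM). As sums, Il33 stood at 682 against 1023 CPM in WT and 247 against 561 CPM in KO. All 6 WT Il33 UMIs lay in 1 Klk6 barcode, and all 8 KO ones in the barcode with 1 Klk6 UMI. At 9.92 per 10000 UMIs, that KO barcode had the highest Il33 value of the KO Mog/Mag barcodes. Grm3, a metabotropic glutamate receptor gene, stood at 114 against 977 CPM in WT and 431.5 against 1024 CPM in KO. Of its 14 UMIs in the KO Klk6 barcodes, 10 lay in that same KO barcode. The Klk6 barcodes held 8792 of the UMIs of the 15 WT barcodes and 32447 of those of the 10 KO barcodes, so in KO they weighed more in any sum over Mog/Mag members.

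**Figure D4:**
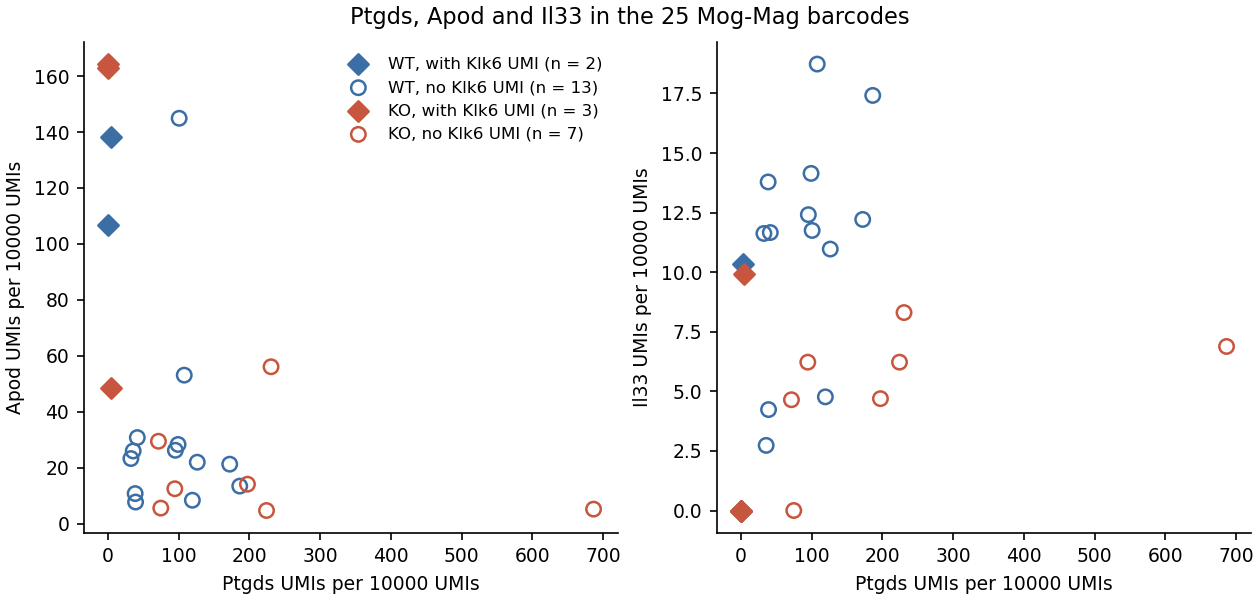
Apod (left) and Il33 (right) against Ptgds, in UMIs per 10000 UMIs of the barcode, in the 25 Mog/Mag members. Filled diamonds are the 5 barcodes with a Klk6 UMI and open circles the 20 without; the diamonds of both libraries sit at the left edge, with 0 to 3 Ptgds UMIs each, and the circles spread to the right.

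Gene lists were summarised by how many measured members (at least 20 UMIs over both libraries) were at least 25% higher or 20% lower in KO, with 50 CPM added. Over all 2508 genes measured in the members, 23.1% were higher and 29.6% lower, with a median log2 ratio of -0.06. In Mog/Mag members 24.0% of 2036 genes were higher and 25.5% lower, with a median of 0.01. These shares are the background for the counts below in the same barcodes. Without the Klk6 barcodes 379 of 1612 genes were higher and 479 lower (median -0.06). Without those and the Aqp4 barcode 258 of 1308 were higher and 438 lower (median -0.12), and counts with barcodes left out are to be set against these.

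Structural myelin genes changed with the mix of kinds. Of 15 myelin protein genes in all members, 2 were higher and 9 lower (median -0.59). In Mog/Mag members 2 were higher and 5 lower (median -0.25). Mbp stood at 1.01 in all members but -0.22 in Mog/Mag members, and Mobp at 0.59 and -0.25, while Cnp stood at -0.49 and -0.03. Cd9 (-0.77) and Pllp (-0.73), genes of tetraspan membrane proteins, were the lowest in Mog/Mag members. The rule's Mog and Mag stood at -0.25 and -0.12 there and Ermn at 0.42. These values rested on the Klk6 barcodes: only 43 of the 119 KO Ermn UMIs and 44 of the 114 KO Mag UMIs lay outside them. Without them Ermn turned to -0.24, Mag stood at -0.52 and Mog at -0.62, while Cd9 stood at -0.27 and Pllp at -0.31. Of 14 myelin protein genes still measured then, none was higher and 5 lower (median -0.29), and with the Aqp4 barcode left out too 9 were lower (median -0.38), where the median over all genes was -0.12. Per 10000 UMIs of a barcode, Mog ran from 5.30 to 16.8 (median 12.3) in WT and from 1.56 to 14.5 (median 7.56) in KO, and Mag from 5.46 to 39.7 (median 19.4) and from 2.76 to 25.8 (median 14.6). Both sets of values overlapped between libraries.

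Genes of axon contact and of the cytoskeleton went both ways. Of 16 in Mog/Mag members 5 were higher and 4 lower (median 0.04), with Epb41l2 (1.18) and Anln (1.00) highest and Jam3 (-0.86), a junctional adhesion gene, lowest. Without the Klk6 barcodes 1 of 15 was higher and 3 lower (median -0.17), with Anln at -0.09. Among 12 measured genes of sphingolipid and fatty acid synthesis 2 were higher and 3 lower (median 0.02). Ugt8a and Fa2h, which make galactosylceramide and its hydroxylated form, stood at 0.17 and 0.03, and the list median turned to -0.20 without the Klk6 barcodes. Of 18 cholesterol synthesis genes 2 were measured, Msmo1 (1.07) and Hmgcs1 (0.85, and 0.47 without the Klk6 barcodes), with 9 and 14 and with 19 and 21 UMIs in WT and KO.

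Of 12 oligodendrocyte transcription factor genes 6 were measured. In all members none was higher and 4 were lower (median -0.57). In Mog/Mag members 2 were higher and 1 lower (median -0.14): Nkx6-2 stood at 0.49, Sox10 at 0.42 and Myrf at -0.98. Without the Klk6 barcodes Nkx6-2 stood at 0.21. Mature subset genes, of which 17 of 18 were measured, had 8 higher and 4 lower in Mog/Mag members (median 0.23). The highest were Klk6 (1.55), Hopx (1.46) and S100b (1.27), all of them genes of the 5 Klk6 barcodes, and the lowest Il33 (-1.16). Without those barcodes the list turned, with 2 higher and 9 lower of 14 (median -0.44).

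Interferon response genes were mostly too low to measure in the members. Of 34 genes 4 were measured in all members, 3 of them higher and none lower (median 1.5). Ifitm3 had 4 UMIs in WT and 46 in KO (2.55) and Ifi27l2a 8 and 51 (2.26), but 32 of the 46 and 29 of the 51 KO UMIs lay in the 11 remaining members that were neither Mog/Mag nor Mbp-rich. Of these, 16 of the 32 and 15 of the 29 lay in 1 barcode. In Mog/Mag members 2 were measured and 1 was higher (median 0.58): Ifi27l2a had 8 and 12 UMIs (0.99), and Ifi27 had 23 and 14 (0.17). Without the Klk6 barcodes 1 was measured, Ifi27 at -0.12. Ifi27l2a then had 7 and 5 UMIs, too few to count as measured, and stood at 0.73. The same list was higher in KO in endothelial barcodes (32 of 34 genes, median 0.79) and microglia barcodes (27 of 34, median 0.62). In astrocyte barcodes 9 of 32 genes were higher and 1 lower (median 0.18). The shares over all genes in these comparison barcodes are not given here. In other shallow barcodes Ifitm3 stood at 530 and 1103 CPM, and the part of RNA from other cells in the members' values was not tested. Of the 4 class I presentation genes measured in Mog/Mag members 1 was higher, B2m at 0.64 (28 and 25 UMIs).

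Genes of stress and hormone response differed in direction. Of 11 glucocorticoid-induced genes measured in Mog/Mag members 2 were higher and 4 lower (median -0.26), with Glul, glutamine synthetase, at 0.61 and Sgk1 at -0.93. The metallothionein genes Mt1 and Mt2 stood at -1.12 and -1.91, and 156 of 256 and 40 of 48 of their WT UMIs lay in the Aqp4 barcode. Without that barcode and the Klk6 barcodes Mt1 and Mt2 stood at 0.31 and 0.08, and the list median turned to 0.05. In endothelial barcodes this list had 8 of 16 genes lower (median -0.29). It had 2 of 16 lower in astrocyte barcodes (median -0.03) and 3 of 15 in microglia barcodes (median -0.06), and none was higher in any of these sets. The shares over all genes in these sets are not given here either, so these counts have no background. Immediate early and heat shock genes had 3 higher and none lower of 7 (median 0.30), Jun among them, and 2 higher and 1 lower of 6 without the Klk6 barcodes (median 0.12).

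Genes of energy supply, iron and disease were compared last. Of 14 measured genes of oxidative phosphorylation 1 was higher and 7 lower in Mog/Mag members (median -0.32), with Cox5a at -0.89 and Ndufb9 at 0.33 (-0.17 without the Klk6 barcodes), while in all members 2 were higher and 5 lower (median 0.10). Fth1 stood at 0.32 and transferrin, Trf, at 0.23 in Mog/Mag members, and both turned without the Klk6 barcodes, to -0.25 and -0.10. Of 9 measured Parkinson disease genes 1 was higher and 6 lower (median -0.36), and without the Klk6 barcodes none of 8 was higher and 2 were lower (median -0.23). Fbxo7 had 25 and 9 UMIs (-0.41) and Synj1 had 6 and 14 (1.37).

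The signals oligodendrocytes could send to myeloid cells were sparse. Cd200, the ligand of the deleted receptor, had 4 UMIs in WT members and 2 in KO members, and the fractalkine gene Cx3cl1 had 0 in both, which is too few to compare. Of 18 such genes 5 were measured in Mog/Mag members, 1 higher and 2 lower (median -0.18). Cd47, which signals to phagocytes not to engulf, had 37 and 24 UMIs (0.26). Cd59a, a complement inhibitor gene, had 9 and 17 UMIs (1.30), but only 2 of the 17 lay outside the KO Klk6 barcodes, and the ratio turned to -0.17 without the Klk6 barcodes. The complement gene C4b had 38 and 14 UMIs (-0.42), of which 14 WT UMIs lay in the Aqp4 barcode and 12 KO UMIs in 1 Klk6 barcode. Its ratio was -0.12 without the Aqp4 barcode, -1.65 without the Klk6 barcodes and -0.97 without both. Csf1, a growth factor of microglia, had 16 and 7 UMIs (-0.18), and its ratio was -1.65 without the Klk6 barcodes. With so few UMIs per gene, single barcodes set these values.

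**Figure D5:**
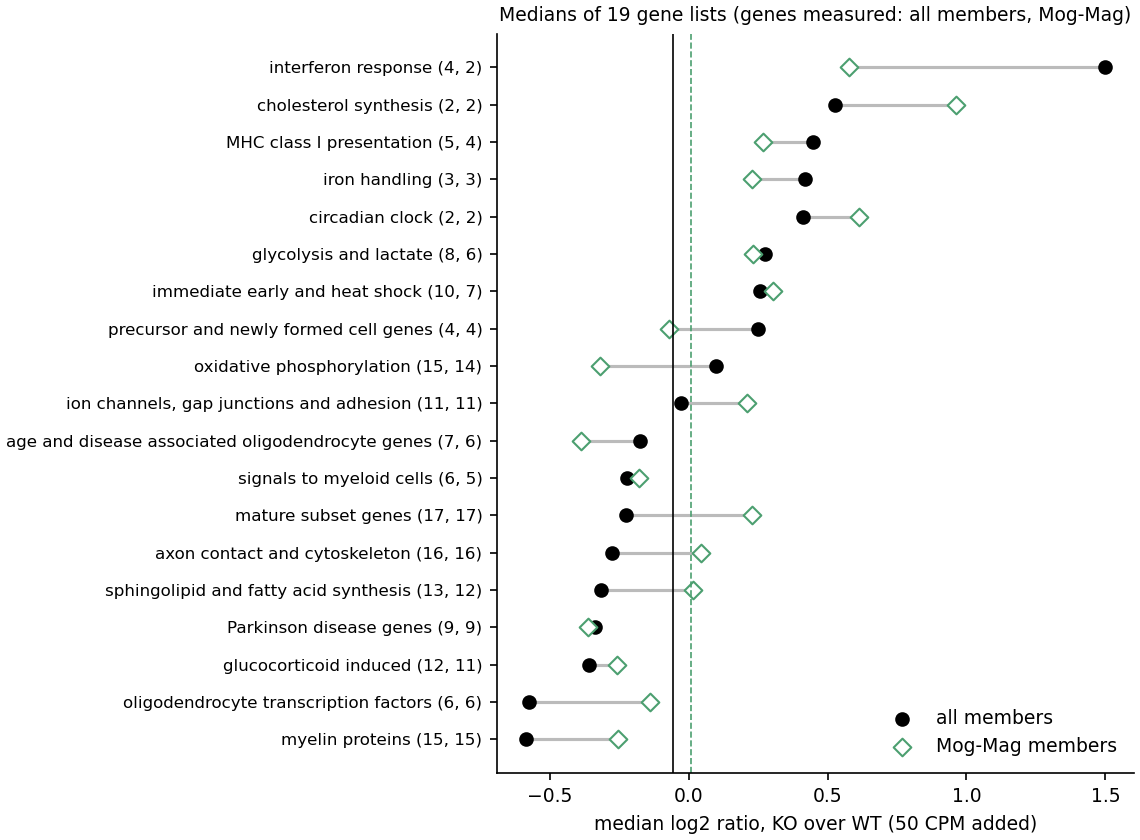
Median log2 ratio of KO to WT (x axis, 50 CPM added) for 19 gene lists, in all members (filled circles) and in Mog/Mag members (open diamonds), with the number of genes measured in each in brackets. Vertical lines mark the medians over all genes; lists such as interferon response and myelin proteins lie farther from these lines in all members than in Mog/Mag members.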

How the data were processed

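Single-cell RNA was measured in 2 libraries, 1 per genotype. Both deposited matrices list, for each barcode, the UMI count of every gene with no scaling; Cell Ranger 7.0.1 wrote them, per the file headers. STAR, Seurat 3.1.1 and GRCm38/mm10 are named in the submitters' processing notes. The annotation release, and whether reads in introns were counted, are not given in the sources used here, so unspliced RNA may add to long genes. The libraries held 127429919 and 131196245 UMIs.

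Members were chosen by the rule stated in the report, with both matrices read the same way. The members, the gene lists and the rule for named genes were chosen with earlier results of these data known. The kinds of member, the Klk6 split and the leaving out of the Aqp4 barcode were set after the values were seen. UMIs were summed per library and scaled to 1000000 (CPM), and ratios are log2 of KO over WT after adding 50 CPM. Counts of genes past 2-fold used genes of 50 or more UMIs, and list counts (25% higher or 20% lower) genes of 20 or more. No test was run, with 1 library per group. Intervals are 95%, exact Poisson for levels, Clopper-Pearson for shares and conditional binomial for ratios. Shares with a UMI were also taken after thinning each barcode to 1000 UMIs. Doublets were called with Scrublet (scanpy 1.11.5) and none was removed, since it called no member.

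Named genes are the 10 highest and 10 lowest in the members (without mitochondrial, ribosomal, haemoglobin, sex-linked and predicted genes and those of the rule), up to 3 at each end of a list, the 20 leading genes, and any gene of the myelin, transcription factor, mature subset and myeloid signal lists. Genes named from the kinds of member, from Mog/Mag members alone and from the Klk6 barcodes (among them Fth1, Plekhb1, Xkr4, Cdh10, Gfap, Gria1 and Sparcl1) were chosen after their values were seen. Comparison barcodes were astrocyte, endothelial and microglia barcodes chosen by rules of the same form. Promoters are RefSeq entries on GRCm38.p6. Some genes are not reported here. The counting of genes past 2-fold was tested on simulated gene sums whose set changes were larger than 2-fold. Those sums had counting error only, so differences between barcodes were not covered. Alternatives changed the rule's limits, the scaling, the constant, the UMI minimum and the barcodes left out. Python 3.11.15, numpy 2.4.6, scipy 1.17.1, pandas 2.3.3 and matplotlib 3.10.9 were used.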

Additional observations from a re-analysis of the deposited data

How the results depend on the processing

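The KO to WT ratio of member shares (1.58) ran from 1.34 to 2.11 under the other limits tried, and turned to 0.506 without members holding another cell type's markers at 0.5% of UMIs (13 and 7 barcodes left) and to 0.627 with Mog/Mag members alone. The genes at least 2-fold higher (25) numbered 16 with at least 5 marker UMIs and 9 without members holding another cell type's markers. Higher and lower genes (25 and 41) numbered 11 and 25 at no more than 5% mitochondrial UMIs, 44 and 71 without the 5 deepest members of each library, 12 and 10 with 200 CPM added, 42 and 147 as means of per-barcode CPM, 66 and 97 at 20 UMIs a gene, 14 and 19 at 100 UMIs and 9 and 18 in Mog/Mag members alone. Thinned to 1000 UMIs, 24 genes were higher and 13 lower of 144 measured, so the balance turned. Of 314 list medians under alternatives, 277 kept their sign and 37 changed it, in 14 of 18 lists. In 5 of the 37 the reported median was past 25% higher or 20% lower: cholesterol synthesis (-0.041, per-barcode means), glucocorticoid-induced genes (0.93) and iron handling (-0.13) after thinning, clock genes (-0.14, at the lower UMI minimum) and Parkinson disease genes (0.086, at the higher one). The other 32 started from smaller medians, and 6 of them came to lie past these limits the other way: signals to myeloid cells (0.42, without members holding another cell type's markers), immediate early genes (-0.46 without the 5 deepest members, -0.72 thinned), precursor genes (-0.40, per-barcode means) and age and disease genes (0.40 thinned, 0.45 at the lower minimum). In Mog/Mag members the interferon median turned to -0.125 without the Klk6 barcodes and -0.302 without those and the Aqp4 barcode. It then rested on 1 gene, Ifi27, since Ifi27l2a (0.73 and 0.56) fell under 20 UMIs. The median of mature subset genes turned to -0.44 and -0.56 in these settings. The interferon median over all members ran from 0.41 to 2.74. The cause of these changes was not tested, beyond the fewer barcodes or genes named. The Mog/Mag settings and the leaving out of the Aqp4 and Klk6 barcodes were chosen after seeing the data: without those barcodes 1 gene was at least 2-fold higher and 16 lower of 460, against 9 and 18 of 687. No paired analysis was possible because each genotype has 1 library. Depth limits the lists: 4 of 34 interferon genes and 2 of 18 cholesterol genes reached 20 UMIs.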
